A study of Mus musculus with 8 samples.

Results

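The 9 genes described here encode the ligands, receptors and binding proteins of the insulin-like growth factor (IGF) system: Igf1, Igf2, Igf1r, Igf2r, Igfbp3, Igfbp4, Igfbp5, Igfbp6 and Igfbp7. They were taken by name from a table of 25655 gene rows, in which each name occurs once, and all 9 were among the 9810 genes with enough reads to be tested. The RNA was that of the gastrocnemius, a calf muscle, taken at day 4 from male mice of wild-type genotype. The control group has 5 samples, treated with 10% glycerol, and the sepsis group has 3, treated with cecal slurry, which is gut content in suspension and causes sepsis from many bacteria. Strain and age were not stated. Nothing in the labels ties each sample to its own animal; the p-values thus reflect the spread among these samples, part of which may be technical. Whole muscle was profiled, so fewer cells of a type and less RNA per cell cannot be told apart.

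IGF1 and IGF2 are small growth factors that act through the IGF1 receptor, a tyrosine kinase that switches on protein synthesis and restrains protein breakdown through PI3K, AKT and mTOR. The IGF2 receptor lacks a kinase domain and carries IGF2 to the lysosome for destruction. The IGF binding proteins hold the ligands in blood and tissue and can limit or prolong their action. In muscle, IGF1 made under growth hormone and by local cells supports fibre growth, and loss of IGF signalling accompanies wasting.

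In septic muscle both ligand genes were lower, the kinase receptor gene Igf1r was higher, and the binding proteins changed in opposite directions. Igf1, Igf2, Igfbp4, Igfbp5 and Igfbp6 fell and Igf1r, Igfbp3 and Igfbp7 rose, by the quasi-likelihood F test of edgeR, with p-values adjusted by the Benjamini-Hochberg method over all 9810 genes. Igf2r did not pass. These 8 of 9 genes, or 88.9%, compare with 50.4% of all genes tested; the 3 that rose and the 5 that fell compare with 25.2% called higher and 25.2% called lower among all genes. The median log2 fold change of the 9 was -0.64, against 0.01 over all genes, and 6 of the 9 had no overlap between the groups, against 47.5% of all genes. In 2 of the 9 all septic libraries lay above the controls and in 4 below them, against 23.1% and 24.3% of all genes. The number of calls differed with scaling. When libraries were scaled by their totals alone, the median of all genes moved from 0.01 to 0.43, and Igf2 and Igfbp4 no longer passed. Then 3 of the 9 rose and 3 fell, and of all 9810 genes 4256 rose and 1387 fell. The 9 genes were chosen with earlier results of these data known, so these shares are a description only.

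The sequences just before the start sites of Igfbp5 and Igfbp3 are shown because these genes had the largest fall and the largest rise of the 9. Each is 250 bases long and ends at the base before the RefSeq start site in build GRCm38.p6, on the minus strand, at chr1:72874866-72875115 for Igfbp5 and chr11:7213924-7214173 for Igfbp3. Capitals mark TATA-like letters.
Igfbp5: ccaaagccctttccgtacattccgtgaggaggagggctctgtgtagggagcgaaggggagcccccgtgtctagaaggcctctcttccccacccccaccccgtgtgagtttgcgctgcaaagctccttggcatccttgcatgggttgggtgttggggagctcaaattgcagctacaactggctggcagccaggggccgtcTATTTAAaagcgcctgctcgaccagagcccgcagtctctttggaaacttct
Igfbp3: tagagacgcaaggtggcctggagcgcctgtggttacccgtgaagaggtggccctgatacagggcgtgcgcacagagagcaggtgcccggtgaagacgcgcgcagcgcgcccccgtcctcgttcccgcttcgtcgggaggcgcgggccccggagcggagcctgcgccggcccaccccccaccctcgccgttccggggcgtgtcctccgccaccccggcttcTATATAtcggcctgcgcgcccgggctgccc
The capitals in Igfbp5 are TATTTAA, which begins 51 bases before the start site and occurs on either strand in 4.18% of the 32841 windows of this length in the table. Those in Igfbp3 are TATATA, which begins 30 bases before the start site and occurs in 5.25% of windows; it reads the same on both strands. Neither window held the letters of the forkhead motif TGTTTAC, the STAT motif TTCNNNGAA or the AP-1 motif TGANTCA, which 3.17%, 7.02% and 6.75% of windows held on either strand. All 9 genes matched the table by symbol. A match or its absence describes these letters in this window only.

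The libraries held 3086277 to 4016329 counts in controls and 3337851 to 3765726 in sepsis. Mitochondrial genes took 21.7% to 26.7% of the counts in controls and 12.6% to 16.9% in sepsis. The factors that scale library sizes by trimmed means of M values (TMM) were 0.887 to 0.908 and 1.13 to 1.30. The groups did not overlap in either. The part of the mitochondrial share in the results was not tested. Results without the TMM factors are those given with library totals alone. Levels are in CPM, which expresses each count on a scale shared by the libraries (TMM-scaled sizes), and 1 read was worth 0.278 to 0.362 CPM in controls and 0.210 to 0.266 CPM in sepsis. The library kit reads transcript 3′ ends, with about 1 read per captured transcript, so levels of different genes are compared without dividing by length. The 10 muscle fibre markers, such as Acta1 and Myh4, summed to 159667 to 188979 CPM in controls and 71210.5 to 100709 in sepsis, so the labelled tissue was present in all 8 libraries. Among the markers of other cells, none of the genes was without a read in every library. The library control 1 had the highest summed level of the fibroblast and fibro-adipogenic markers and of the macrophage and leukocyte markers among controls. These were at 2915 CPM against 1376 to 1830 and at 208 CPM against 81.0 to 99.98 in the others. It also had the lowest fibre sum of the controls, at 159667 CPM, and the highest mitochondrial share, at 26.7%.

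**Figure D1:**
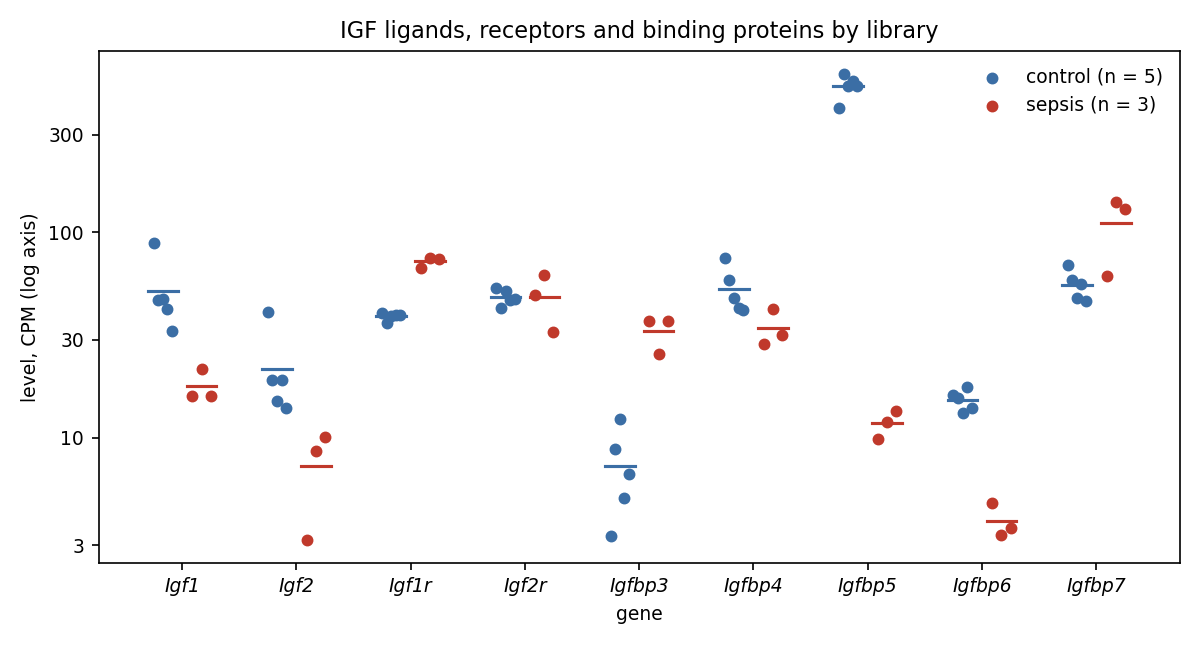
Level of each gene in every library, in CPM on a log axis, with controls in blue and septic libraries in red; the horizontal bars are group means. Igfbp5 stood highest in controls, at 406 to 592 CPM, and at 9.84 to 13.5 CPM in sepsis.

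Both ligands had fewer reads in septic muscle. Igf1, the main growth factor of the system after birth, stood at 88.5, 47.1, 47.3, 42.3 and 33.1 CPM in controls 1 to 5 and at 15.96, 21.6 and 15.98 CPM in sepsis 1 to 3. Every septic library lay below every control, and control 1 lay far above the other controls. Igf1 fell 2.89-fold; its log2 fold change was -1.53 (SE 0.30), at an adjusted p of 0.00177. Without control 1 the log2 fold change was -1.25 at an adjusted p of 0.000171. Igf2, the growth factor that dominates before birth, stood at 40.8, 19.1, 15.1, 19.2 and 14.0 CPM in controls and at 3.19, 8.61 and 10.0 CPM in sepsis. The groups did not overlap, with control 1 again highest and sepsis 1 lowest. Igf2 fell 2.94-fold, with -1.55 (SE 0.44) and an adjusted p of 0.0149, and without control 1 it had -1.19 at an adjusted p of 0.00780. With library totals alone it had -1.13 at an adjusted p of 0.0566. Igf1 gave 2.17 to 3.14 reads per Igf2 read in controls and 1.59 to 5 in sepsis, so the balance of the ligands overlapped between the groups.

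Markers of several cell types were lower beside the ligands. Those of fibroblasts and fibro-adipogenic cells, the connective tissue cells of muscle, summed to 1376 to 2915 CPM in controls and 319 to 494 CPM in sepsis. Of these 10 markers 9 fell, by unlike amounts. The collagen genes Col1a1, Col1a2 and Col3a1, at control means of 248, 760 and 178 CPM, had log2 fold changes of -5.26, -4.22 and -4.53. Pdgfra and Dcn had -0.98 and -0.88, and the others that fell lay between. Ly6a had 0.48 and did not pass. Among tested markers 10 of 10 of fibres, 5 of 6 of tendon, 3 of 5 of Schwann cells and 4 of 9 of smooth muscle and pericytes also fell. None of these lists held a gene called higher, while 25.2% of all genes tested were called lower and 25.2% higher. In contrast, the markers of macrophages and other leukocytes summed to 81.0 to 208 CPM in controls and 325 to 554 CPM in sepsis, with 7 of 9 tested genes higher and none lower. The part of these cells in the ligand levels was not tested.

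The receptors differed from each other. Igf1r, the signalling receptor, stood at 40.5, 36.1, 39.2, 39.4 and 39.8 CPM in controls and at 67.3, 74.8 and 74.7 CPM in sepsis. These were the tightest values of the 9 genes, with a coefficient of variation of 4.37% in controls and 5.94% in sepsis, and the groups did not overlap. Igf1r rose 1.85-fold, with 0.89 (SE 0.11) and an adjusted p of 2.51e-05. Igf2r, the clearance receptor, stood at 53.6, 42.7, 52.1, 46.6 and 47.5 CPM in controls and at 49.7, 62.2 and 32.9 CPM in sepsis. Its septic libraries lay on both sides of the controls. It had -0.01 (SE 0.18) at an adjusted p of 0.979, and its sign depended on the setting, from -0.23 without sepsis 2 to 0.42 with library totals alone, where the adjusted p was 0.0785. The ratio of Igf1 to Igf1r reads, which needs no scaling between libraries, was 2.18, 1.30, 1.21, 1.07 and 0.83 in controls and 0.24, 0.29 and 0.21 in sepsis. Thus a control library held 0.83 or more ligand reads per receptor read and a septic library 0.29 or fewer. Igf1r gave 0.75 to 0.85 reads per Igf2r read in controls and 1.20 to 2.27 in sepsis.

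Igfbp5, a binding protein that attaches to matrix and is made by differentiating muscle cells, showed the largest change of the 9 genes. It had 1461, 1885, 1710, 1516 and 1615 reads in controls and 37, 57 and 59 in sepsis. In CPM the controls were 406, 592, 515, 548 and 515 and the septic libraries 9.84, 12.0 and 13.5, so the lowest control was far above the highest septic library. It fell 43.5-fold, with -5.44 (SE 0.18) and an adjusted p of 3.44e-10, and ranked 31 among the 9810 genes by the size of its log2 fold change. Under all 17 alternatives it passed, with log2 fold changes from -5.55 to -5.02. The 10 fibre markers also all fell, with a median log2 fold change of -1.15, and the fibroblast and fibro-adipogenic markers had a median of -2.50 and the 6 tested tendon markers -4.74. Of the tendon genes 5 fell and 1, Scx, did not pass, and their 8 listed markers summed to 145 to 230 CPM in controls and 9.36 to 24.2 CPM in sepsis. Whether these cells account for any of the Igfbp5 reads was not tested. Over the 8 libraries, the non-member genes whose log2 CPM was most like that of Igfbp5 were Casq1, Suclg1 and Akr1b3, with Pearson correlations of 0.999, 0.998 and 0.998. This is a description of 8 points that fall into the 2 groups, and 664 genes had a correlation above 0.95.

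Igfbp6, a binding protein that prefers IGF2, also fell. It stood at 16.1, 15.7, 13.3, 17.7 and 14.0 CPM in controls and at 4.79, 3.36 and 3.65 CPM in sepsis, with no overlap. The fall was 3.91-fold, with -1.97 (SE 0.22) and an adjusted p of 9.49e-06, and it rests on 16 to 18 reads in each septic library. Igfbp4, a binding protein that blocks IGF action until it is cut by the protease pappalysin, stood at 74.9, 58.7, 47.9, 42.7 and 41.7 CPM in controls and at 28.7, 42.2 and 31.5 CPM in sepsis. Sepsis 2 lay within the range of the controls. Igfbp4 fell 1.56-fold, with -0.64 (SE 0.21) and an adjusted p of 0.0211. It did not pass without sepsis 1 (adjusted p of 0.0801), without sepsis 3 (0.0744) or with library totals alone (0.455, at -0.21).

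Igfbp3, the main carrier of IGFs in blood, and Igfbp7, a low-affinity relative found in vessel walls, were the binding proteins that rose. Igfbp3 stood at 3.33, 8.79, 12.3, 5.06 and 6.69 CPM in controls and at 37.0, 25.6 and 37.2 CPM in sepsis. Control libraries held only 12 to 41 reads of it, and every septic library, with 122 to 163 reads, was above every control. It rose 4.56-fold, with 2.19 (SE 0.30) and an adjusted p of 8.69e-05. Igfbp7 stood at 69.1, 59.0, 47.9, 56.1 and 46.5 CPM in controls and at 61.2, 142 and 130 CPM in sepsis. Sepsis 1 lay among the controls and the other septic libraries lay above them all. Igfbp7 rose 1.99-fold, with 0.99 (SE 0.24) and an adjusted p of 0.00567. In the GENCODE M21 annotation of GRCm38 the span of Igfbp7 overlaps Polr2b on the opposite strand, and no source used here gives the strand setting of the counting. Polr2b had -0.07 (SE 0.17) at an adjusted p of 0.767. The same limit holds for Igf1, Igf2 and Igf2r, opposite which that annotation places the antisense genes Igf1os, Igf2os and Airn.

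The vessel markers went both ways. The 10 endothelial markers summed to 230 to 278 CPM in controls and 247 to 337 CPM in sepsis, with 5 higher and 2 lower past the threshold. Those of smooth muscle and pericytes summed to 420 to 500 CPM in controls and 269 to 322 CPM in sepsis, with 4 of 9 lower and none higher. Among all genes tested 25.2% were called higher and 25.2% lower. The part of vessel cells in the levels of Igfbp3 and Igfbp7 was not tested.

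**Figure D2:**
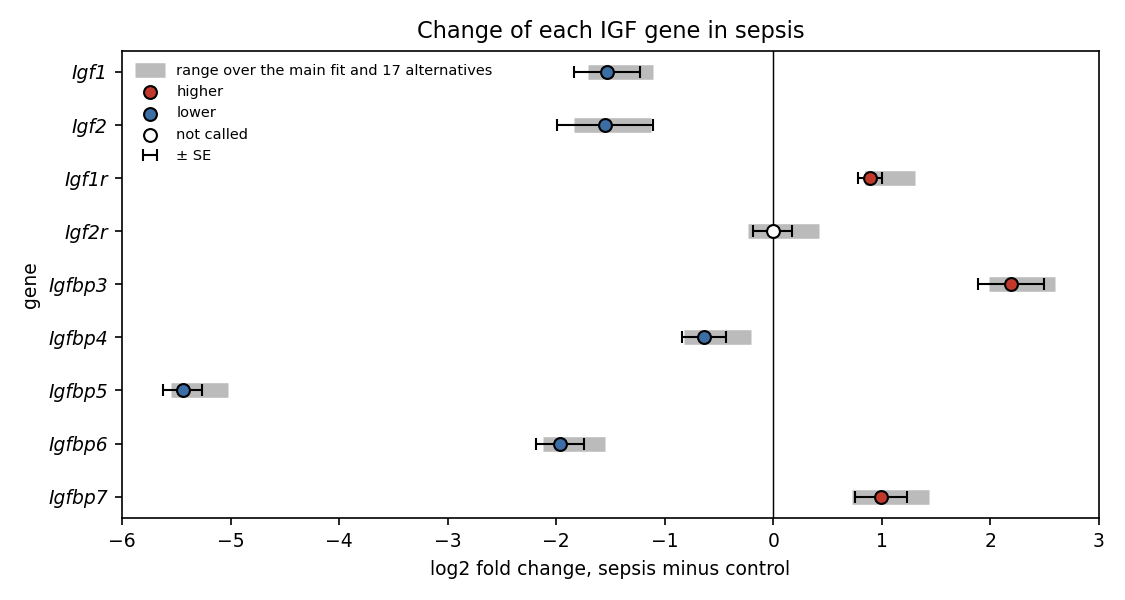
Log2 fold change of each gene, sepsis minus control, with its SE (black bars), coloured red for higher, blue for lower and white for not called; grey bands span the main value and its 17 alternatives. The band of Igf2r, from -0.23 to 0.42, includes 0 and those of the other genes do not.

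The order of the levels also differed between the groups. In controls Igfbp5, at a mean of 515 CPM, stood above Igfbp7 at 55.7 CPM with no overlap, and from Igfbp7 through Igfbp4 and Igf1 to Igf2r (48.5 CPM) each gene overlapped the next in line. Igf1r followed at 39.0 CPM, below Igf2r with no overlap, then Igf2 at 21.6, Igfbp6 at 15.4 and Igfbp3 at 7.24 CPM. Igf1r overlapped Igf2 and Igf2 overlapped Igfbp6, while Igfbp3 lay below Igfbp6. In sepsis the order was Igfbp7 at 111, Igf1r at 72.2, Igf2r at 48.3, Igfbp4 at 34.2, Igfbp3 at 33.3, Igf1 at 17.9, Igfbp5 at 11.8, Igf2 at 7.28 and Igfbp6 at 3.93 CPM. Of these neighbours, Igf1r and Igf2r, Igfbp3 and Igf1, and Igf1 and Igfbp5 did not overlap.

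The make-up of the binding protein reads, which needs no scaling between libraries, shifted from Igfbp5 to Igfbp7, Igfbp4 and Igfbp3. Igfbp5 made up 79.4% ± 4.63 of the reads of the 5 binding proteins in controls (SD, n = 5) and 6.18% ± 0.816 in sepsis (n = 3). In single libraries it was 71.3% to 82.5% in controls and 5.33% to 6.95% in sepsis; the exact 95% binomial interval for sepsis 2 was 4.06% to 6.85%. Igfbp7 went from 8.71% ± 1.96 to 55.5% ± 10.7, Igfbp4 from 8.35% ± 2.77 to 17.9% ± 2.95 and Igfbp3 from 1.11% ± 0.524 to 18.3% ± 7.41, each without overlap, so that Igfbp4 took a larger share although its level was lower. Igfbp6 stayed a minor component, at 2.39% ± 0.330 and 2.19% ± 1.04, and overlapped. Intervals cover counting error only. Igfbp1 and Igfbp2, which carry IGFs in blood, had no read in any library; a count of 0 allows up to 3 reads, or 0.833 to 1.08 CPM in a control and 0.630 to 0.798 CPM in a septic library.

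**Figure D3:**
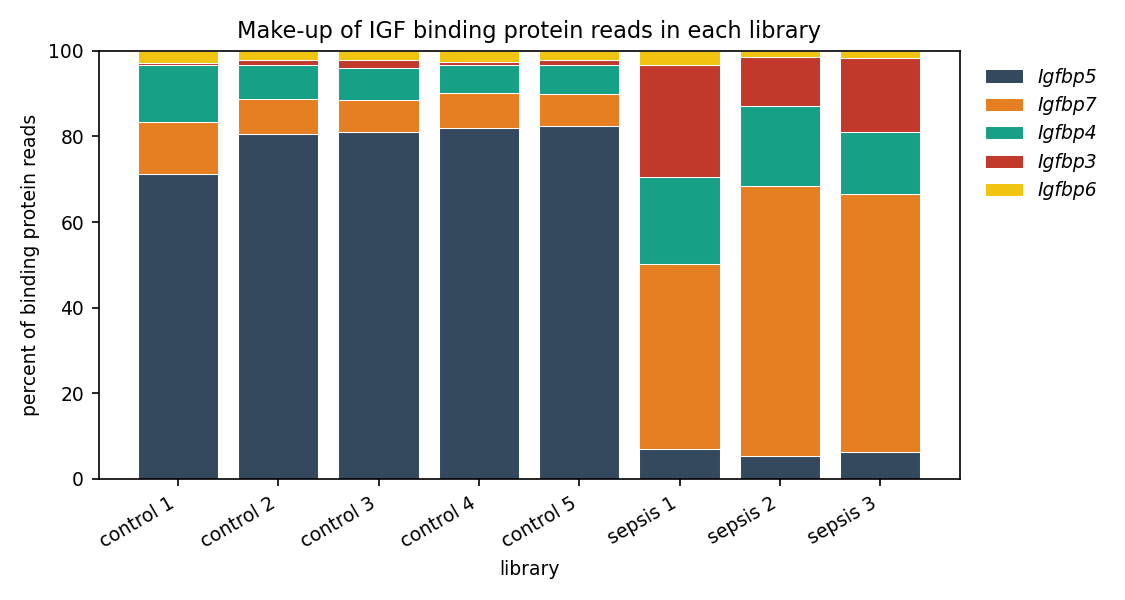
Share of each of the 5 binding proteins in their summed reads, as stacked percentages for every library. Igfbp5 takes 71.3% to 82.5% in controls and 5.33% to 6.95% in sepsis, where Igfbp7 takes 43.2% to 63.0%.

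The summed level of the 5 binding proteins was 569 to 734 CPM in controls and 141 to 225 CPM in sepsis. Without Igfbp5 the sums overlapped, at 109 to 163 CPM in controls and 132 to 213 CPM in sepsis. The summed ligands were 47.2 to 129 CPM in controls and 19.1 to 30.3 CPM in sepsis. Binding protein reads per ligand read were 4.399, 11.1, 10.2, 10.9 and 13.2 in controls and 7.39, 7.43 and 8.29 in sepsis. The groups overlapped through control 1 alone, the library with the most ligand reads, and every septic library lay below controls 2 to 5. Igfbp5 gave 41.7 to 122 reads per Igfbp3 read in controls and 0.27 to 0.47 in sepsis.

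A list of 32 genes covered mainly those that act on the ligands outside the cell and the growth hormone genes upstream. It also held the insulin receptor gene and its relative Insrr, the Igf2 mRNA-binding protein genes and H19. Of the 32 genes 31 matched a row and 17 were tested. Of these 4 rose and 5 fell, or 52.9% against 50.4% of all genes, and the median was -0.25. With library totals alone the median was 0.17, against 0.43 over all genes. The growth hormone receptor gene Ghr stood at 53.6, 70.0, 64.7, 59.7 and 56.1 CPM in controls and at 18.9, 17.6 and 16.4 CPM in sepsis. It fell 3.44-fold, with -1.78 (SE 0.14) and an adjusted p of 6.57e-07, and the groups were far apart. Jak2, the kinase bound to that receptor, fell with -0.67 (SE 0.16), and Cish, a feedback inhibitor induced by growth hormone through STAT5, fell with -2.08 at an adjusted p of 0.00385. Cish is the fifth gene that fell and was named after its value was seen. Socs2, another STAT5-induced inhibitor, had 0.05 and Stat5b 0.19, and neither passed.

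The insulin receptor gene Insr, whose product can pair with the IGF1 receptor, rose as Igf1r did. It stood at 21.7, 24.8, 30.1, 26.8 and 26.1 CPM in controls and at 76.6, 57.6 and 46.1 CPM in sepsis. Insr rose 2.32-fold, with 1.21 (SE 0.17) and an adjusted p of 5.95e-05. Htra1, a secreted protease that cuts IGF binding proteins, stood at 11.5 to 19.2 CPM in controls and at 75.0, 27.3 and 189 CPM in sepsis. All septic libraries were above the controls but varied widely among themselves, and its rise of 2.65 (SE 0.57) had an adjusted p of 0.00607. Without sepsis 3 the rise was 1.72 at an adjusted p of 0.00471. Stc1, an inhibitor of pappalysins, rose with 2.06 (SE 0.44), on 22 control and 74 septic reads, and Igf2bp2, which binds Igf2 mRNA, rose with 1.12 (SE 0.30). Htra3, a related protease gene, and Lrp6, a Wnt coreceptor that can bind IGFBP4, fell with -0.75 and -0.87. With library totals alone Jak2, Htra3 and Lrp6 no longer passed, at adjusted p-values of 0.198, 0.144 and 0.102.

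Within the cell, 54 genes from receptor substrates to mTOR effectors were listed, and 53 were tested. Of these 18 rose and 13 fell, or 58.5% against 50.4% of all genes, with a median of 0.05. With library totals alone 27 rose and 5 fell, while of all 9810 genes 4256 rose and 1387 fell. Pdpk1 and Akt1, the kinases that pass the signal on from PI3K, rose 2.67-fold and 2.68-fold, and Akt1 stood at 39.5 to 61.6 CPM in controls and 123 to 142 in sepsis. Akt2, the more abundant AKT gene in these libraries, stood at 201 CPM in controls and 183 CPM in sepsis on average, with -0.13, and did not pass. Listed inhibitors of the pathway went in both directions. Grb14, an adaptor that inhibits the insulin receptor, stood at 8.81 ± 2.25 CPM in controls (SD, n = 5) and 1.46 ± 0.192 in sepsis (n = 3), with -2.55 (SE 0.33). Inppl1, which encodes the lipid phosphatase SHIP2, fell 2.90-fold from 85.8 ± 7.12 to 29.4 ± 7.98 CPM. Inpp5k, another inositol phosphatase gene of the pathway, rose with 0.52, and Grb10, an adaptor related to Grb14, had -0.04 and did not pass; both were named after their values were seen. At the translation end, Eif4ebp1, a repressor of cap-dependent translation, stood at 29.3 to 34.98 CPM in controls and 371 to 484 CPM in sepsis, while its target Eif4e fell 1.83-fold. Rps6, a ribosomal protein phosphorylated downstream of mTOR, rose 2.19-fold, and Hras, which leads to the ERK branch, fell 2.74-fold. Irs2, a receptor substrate, rose with 1.27, and Irs1 had -0.66 without passing.

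**Figure D4:**
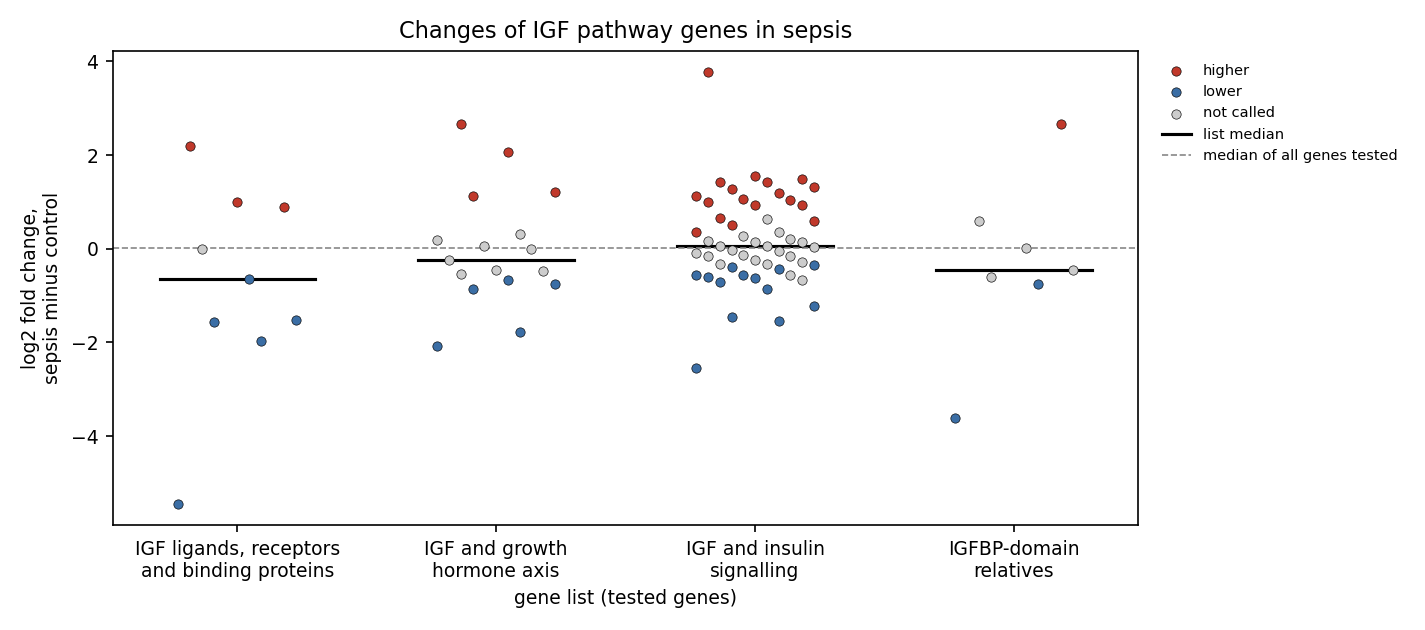
Log2 fold change, sepsis minus control, of each tested gene in the 9 IGF genes and the 3 pathway lists, coloured by call; black bars are list medians and the dashed line is the median of all genes tested. The lists hold genes on both sides of 0, with medians of -0.64, -0.25, 0.05 and -0.45 from left to right. With library totals alone these medians were -0.21, 0.17, 0.47 and -0.03, and that of all genes was 0.43.

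**Figure D5:**
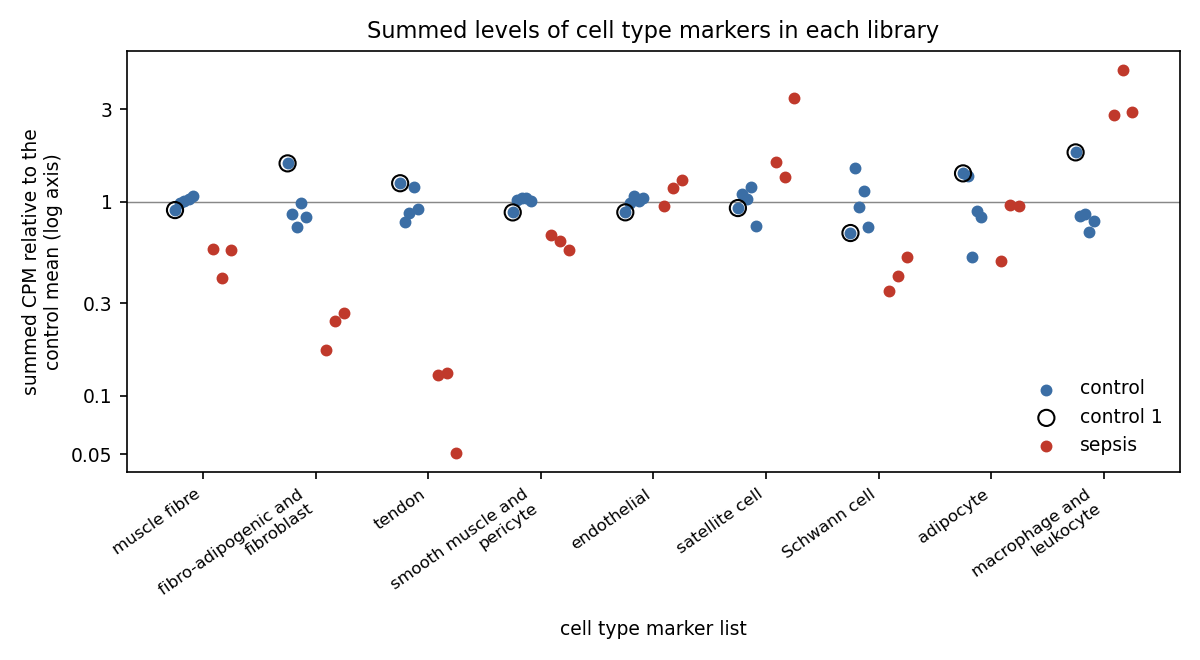
Summed level of each cell type marker list in every library, relative to the mean of the controls, on a log axis, with control 1 circled; the neutrophil list, at 0.30 to 1.08 CPM in controls and 66.0 to 145 CPM in sepsis, is not drawn. The fibre, fibroblast, tendon, smooth muscle and Schwann cell sums lie below the controls in all septic libraries. The macrophage and satellite cell sums lie above, while the endothelial and adipocyte sums overlap. The satellite cell markers did not move together: Vcam1 and Sdc4 rose, Chodl fell and Cdh15 did not pass. Pax7, with too few reads to be tested, had 47 reads in controls and 21 in sepsis.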

How the data were processed

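The table deposited by the authors holds raw read counts per gene in whole numbers, with a column for each of the 8 libraries, and nothing else was analysed. Per the labels' protocols the libraries were made from total RNA with a QuantSeq 3′ mRNA kit, and per the submitters' processing notes the build was GRCm39. The aligner, counting tool, strand setting and annotation release are not given in the sources used here. All samples were grouped by their titles. Genes were kept by edgeR's filter (minimum count 10, minimum total 15). Scaling was by the TMM method (trimmed means of M values), and sepsis was compared with control over all 8 libraries by the robust quasi-likelihood F test in edgeR 4.0.16 (R 4.3.3), with no covariate, Benjamini-Hochberg adjustment over all genes tested and a threshold of 0.05. The SE is the absolute log2 fold change divided by the square root of F. A prior count of 2 was used for log2 CPM. Alternatives used other scalings and filters, DESeq2 1.42.0, limma 3.58.1, a replicate block and each library left out. The procedure was also run on simulated data in which few genes changed, with rises and falls balanced. That setting lacks the broad change and the difference in scaling factors between the groups, so it cannot show how the procedure performs under them.

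The members and gene lists were chosen with earlier results of these data known. The text names all 9 members, Igfbp1, Igfbp2, up to 4 called genes per direction and list with the smallest p, and the 3 genes most like Igfbp5. Named after their values were seen were Cish, Socs2, Stat5b, Akt2, Irs1, Irs2, Inpp5k, Grb10, Polr2b, Igfals, Pappa, Pappa2, Ccn1, Ccn2, Crim1, Ly6a and the TATA-like letters. So were the markers Vcam1, Sdc4, Chodl, Cdh15, Pax7, Col1a1, Col1a2, Col3a1, Pdgfra and Dcn. Acta1, Myh4 and Scx stand for their marker lists. The list gene H19 had no matching row. Promoter sequences are RefSeq's, of GRCm38.p6.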

Additional observations from a re-analysis of the deposited data

Results flagged for a closer look

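In controls, 1 library lay far from the others in 6 of 22 measures of these genes, and in each case it was control 1. The gap to the nearest control, divided by the range, was above 0.71, Dixon's critical value for 5 samples; chance flags about 1 in 20 groups, and these measures share reads. Igf1 was at 88.5 CPM against 47.3 in the next control, Igf2 at 40.8 against 19.2, and the ligands together at 129 against 66.2. Of the binding protein reads in control 1, Igfbp5 made up 71.3% against 80.6% in the nearest control, Igfbp4 13.2% against 7.998% and Igfbp7 12.1% against 8.37%. Control 1 stood apart more widely. Among controls it had the highest summed fibroblast, macrophage, tendon and adipocyte markers and the highest mitochondrial share. It had the lowest summed fibre, endothelial, smooth muscle and Schwann cell markers. The part of these differences in the flagged values was not tested. The septic group, with 3 libraries, was not examined in this way.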

How the results depend on the processing

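Of 153 values of the 9 genes under 17 alternatives, 141 kept their direction and their side of the threshold, 6 lost the call and 6 changed sign. The sign changes were all of Igf2r, at 0.42 with library totals alone, 0.0226 with no filter, 0.0130 with voom and sample weights, and positive values without control 1, control 3 or sepsis 3; with single libraries left out it ranged from -0.233 to 0.209, and it passed under no alternative. With library totals alone 4256 genes were higher and 1387 lower, 3 members and 2 axis genes were lower, and 27 signalling genes were higher and 5 lower; among the IGFBP-domain relatives 2 were higher and 1 lower. That median shift follows from the scaling itself. At a minimum count of 20, where 5 relatives were tested, 1 was lower, and 2255 of all 8171 genes tested were lower. Without sepsis 2, 2 relatives were higher, against 1 without any other library. With the replicate block 1741 of all 9810 genes were higher and 1884 lower, against 2475 and 2468 without it. In that fit 2 axis genes were higher, 8 signalling genes lower and 0 relatives higher. There Igf2, Igfbp7, Htra1 and Igf2bp2 lost their calls, at adjusted p-values of 0.0726, 0.0765, 0.0644 and 0.0768. Same-numbered libraries had correlations of deviations of -0.12, 0.04 and -0.02, which show no pairing by replicate number. With only 3 shared replicate numbers these correlations cannot exclude such pairing. The other causes were not tested. Depth limits Igfbp3 in controls (12 to 41 reads) and, in sepsis, Igfbp6 (16 to 18) and Igf2 (12 to 44).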

Other observations

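Secreted proteins outside the family that carry an IGFBP-type domain were described from a list of 13 genes, of which 7 had enough reads. Of these 1 rose, Htra1, and 2 fell, Kazald1 and Htra3, or 42.9% against 50.4% of all genes. Kazald1, a matrix protein gene, stood at 4.19 ± 0.735 CPM in controls (SD, n = 5) and 0.292 ± 0.254 in sepsis (n = 3), with 67 and 4 reads; its log2 fold change was -3.62 (SE 0.53) at an adjusted p of 9.62e-05 in edgeR. The matricellular genes Ccn1 and Ccn2 had 0.60 and -0.60, and Crim1 had 0.01; none of these passed.

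Some partners of the system had too few reads to be tested. Igfals, which encodes the acid-labile subunit that joins IGFBP3 and a ligand in blood, had 43 reads in controls and 6 in sepsis, and every septic library was below every control in CPM. Pappa, the protease that cuts IGFBP4, had 17 and 6 reads and the groups overlapped, and its relative Pappa2 had 0 and 4 reads. Ly6a, a marker on the fibro-adipogenic list, was the 1 gene of that list that did not pass, at 0.48.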
